A study of Mus musculus with 12 samples.

Results

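The genes described here code for the chains of collagens and laminins, the main building proteins of connective tissue fibrils and of basement membranes. All genes were taken whose symbol in the array's annotation begins with Col, a number, the letter a and a number, or with Lam, the letter a, b or c and a number. The rule used names only and no measured value. It found 46 genes, 36 collagen and 10 laminin chains, of 12393 genes with 1 symbol, and these chains were read by 74 of 22626 probe sets. A chain's main reading was taken from whichever of its probe sets averaged highest across the arrays. A reading from another probe set of a chain is named as such.

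The values came from Affymetrix mouse arrays of whole lung and whole liver of female NCR nude mice, a strain that lacks a thymus and most T cells. Tumor-bearing mice had received 4T1 cells, a mouse mammary carcinoma line, as an orthotopic graft. Control mice had received phosphate-buffered saline (PBS). Tissue was taken on day 7, and the sample titles call the organs of the tumor-bearing mice pre-metastatic. The 12 arrays divide into 4 groups of 3, by organ and by tumor, and the design text takes both organs from 3 control and 3 tumor-bearing mice. No label says that a replicate number marks a mouse. Values are log2 GCRMA expression values, a scale on which a difference of 1 is a doubling, and every array had 2.04 as its minimum. The number of arrays, 3 a group, limits the precision.

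Collagen chains wind around each other into helical trimers. Fibrillar collagens (types I, III and V) form the tensile fibrils of the interstitium, and collagen VI forms beaded filaments beside the cells. Collagen IV forms the network of basement membranes, where it meets laminins, which are trimers of an alpha, a beta and a gamma chain. The glomerular and alveolar basement membranes hold a collagen IV network built of the Col4a3, Col4a4 and Col4a5 chains, while the Col4a1 and Col4a2 chains are found in nearly all basement membranes. In liver the space between hepatocytes and sinusoids holds little laminin and no continuous basement membrane.

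Several of these genes lie side by side and some share a promoter region, so the bases before their starts are shown for the chains on which the results turn. In RefSeq (GRCm38.p6) the neighbouring genes Col4a1 and Col4a2 start on opposite strands of chromosome 8, 21 bases apart, and Col4a6 and Col4a5 start on opposite strands of chromosome X, 1343 bases apart. Other neighbours were Col9a1 and Col19a1, Col3a1 and Col5a2, and Col4a4 and Col4a3 on chromosome 1, and Col6a2 and Col6a1 on chromosome 10. Col18a1 had 2 listed starts, 52825 bases apart. The first line below spans the starts of Col4a1 and Col4a2 on the plus strand, and each other line gives the 250 bases before the start on the gene's own strand. Capitals mark the CCAAT box (CCAAT), the TATA box (TATAAA) and the GC box (GGGCGG) on either strand, so ATTGG is a CCAAT box and CCGCCC a GC box read on the opposite strand.
Col4a1 and Col4a2, chr8:11312775-11312856, plus strand: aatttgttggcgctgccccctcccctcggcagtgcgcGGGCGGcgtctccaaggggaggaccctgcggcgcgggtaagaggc
Col4a5, chrX:141475169-141475418, plus strand: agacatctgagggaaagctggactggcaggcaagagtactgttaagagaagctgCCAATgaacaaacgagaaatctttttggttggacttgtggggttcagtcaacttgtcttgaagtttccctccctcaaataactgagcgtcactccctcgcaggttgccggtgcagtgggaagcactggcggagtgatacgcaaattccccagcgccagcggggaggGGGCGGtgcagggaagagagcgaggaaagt
Col4a6, chrX:141474077-141474326, minus strand: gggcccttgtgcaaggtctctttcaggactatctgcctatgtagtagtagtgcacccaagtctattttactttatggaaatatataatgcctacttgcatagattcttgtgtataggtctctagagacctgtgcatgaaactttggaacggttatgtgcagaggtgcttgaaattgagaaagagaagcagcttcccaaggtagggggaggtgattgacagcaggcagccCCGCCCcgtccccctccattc
Col18a1, upstream start, chr10:77166531-77166780, minus strand: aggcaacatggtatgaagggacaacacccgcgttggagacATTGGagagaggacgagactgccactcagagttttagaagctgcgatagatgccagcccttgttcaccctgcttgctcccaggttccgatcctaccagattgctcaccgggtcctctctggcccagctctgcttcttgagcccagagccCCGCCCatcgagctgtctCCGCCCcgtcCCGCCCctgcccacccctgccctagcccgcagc
Col18a1, downstream start, chr10:77113706-77113955, minus strand: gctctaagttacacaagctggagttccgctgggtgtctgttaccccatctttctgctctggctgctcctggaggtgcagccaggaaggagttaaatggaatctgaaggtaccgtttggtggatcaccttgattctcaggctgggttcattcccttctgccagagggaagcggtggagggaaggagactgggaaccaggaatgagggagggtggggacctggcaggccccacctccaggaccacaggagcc
Col1a2, chr6:4505368-4505617, plus strand: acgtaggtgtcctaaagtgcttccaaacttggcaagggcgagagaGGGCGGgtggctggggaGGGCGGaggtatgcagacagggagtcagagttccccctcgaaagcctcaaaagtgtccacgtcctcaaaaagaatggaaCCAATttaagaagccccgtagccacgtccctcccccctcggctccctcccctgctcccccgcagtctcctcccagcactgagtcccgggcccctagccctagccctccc
Col3a1, chr1:45311288-45311537, plus strand: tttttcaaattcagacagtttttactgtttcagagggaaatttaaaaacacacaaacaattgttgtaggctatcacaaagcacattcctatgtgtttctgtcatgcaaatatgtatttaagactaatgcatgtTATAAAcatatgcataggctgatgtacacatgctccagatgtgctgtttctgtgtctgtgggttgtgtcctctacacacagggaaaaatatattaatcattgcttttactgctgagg

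Promoter windows of 300 bases (250 before to 50 after the start) were listed for 32 of the 46 chains, 36 windows in all. GGGCGG, the GC box, was present on either strand in 55.6% of the chain windows and in 35.7% of all 32851 windows. CCAAT was present in 36.1% against 37.4%, and TATAAA in 13.9% against 13.6%. The chain windows had a median GC content of 59.3%, against 52.7% for all windows, and the share with the GC box was not corrected for this. The windows of Col4a1 and Col4a2 held 1 and 3 GC boxes, 1 CCAAT each and no TATAAA. That of Col3a1 held 1 TATAAA, no CCAAT and no GC box. The GC box marked in the printed Col4a1 and Col4a2 line lies after both listed starts, where these genes overlap. A match is a description of these letters and was not set against binding data.

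Marker transcripts matched the organ labels. Sftpc, a surfactant gene of the alveolar epithelium, read 15.70 to 15.86 in lung, 6.54 on liver control replicate 2 and 2.24 to 2.63 on the other liver arrays. In liver Alb, which codes for albumin, read 16.05 to 16.20. Arrays of a group correlated at 0.989 to 0.996, and no arrays were identical. Some lung arrays stood apart. The albumin transcript was strong on lung tumor replicate 1 (14.39) and lung control replicate 3 (14.65), while the remaining lung arrays read 8.96 to 11.08. Lung tumor replicate 3 carried skeletal muscle and cartilage transcripts, given below beside the collagen chains they accompany. The mean over 10 cardiac muscle markers lay between 7.26 and 8.72 on 4 of the 6 lung arrays, while lung control replicate 1 had 3.71 and lung tumor replicate 1 had 5.14. Several lung differences below are given with and without the arrays of high Alb and lung tumor replicate 3.

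A gene was tested where its value was above 4 on at least 3 of the arrays compared. This was met by 26 of the 46 chains in lung, 20 in liver and 27 in the comparison of the organs. In both lung and liver 19 chains were tested, 7 in lung alone (Col1a1, Col4a3, Col4a4, Lama2, Lama3, Lamb3 and Lamc1) and Col5a3 in liver alone. Differences were tested with limma and called at a Benjamini-Hochberg adjusted p under 0.05 over all genes tested. Whether lung and liver arrays were normalized together is not given in the sources used here, and array medians were 5.99 to 6.12 in lung and 5.55 to 5.65 in liver.

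Most chains were higher in control lung than in control liver. All 27 chains tested were called, 23 higher and 4 lower in lung, where 81.1% of the 8270 genes tested were called, 45.6% as higher and 35.5% as lower in lung. The median difference was 4.96 over the chains and 0.18 over all genes. A chain that passes the filter in lung alone has to differ, so the 19 chains above the filter in both organs were also counted. Of these, 16 were higher and 3 lower in lung, a share of 84.2% higher against 43.9% of the 7190 genes above the filter in both organs. The 19 still include Col6a3, at its probe set's lowest value on 5 liver arrays. They also include Lama4, above 4 on 2 control and 1 tumor-bearing liver arrays. In the tumor-bearing mice the split was also 23 higher and 4 lower, where 44.7% of 8286 genes were called higher and 31.6% lower. In whole organs more cells of a type and more RNA per cell cannot be told apart. Markers of the cells that make these chains also differed. The mean over 12 fibroblast markers was 8.08 to 8.72 in lung and 5.44 to 5.86 in liver, and the mean over 8 endothelial markers was 10.15 to 10.45 in lung and 5.52 to 6.11 in liver. Markers of hepatic stellate cells, the liver's main collagen producers, went the other way, with a mean over 6 of 5.99 to 6.70 in lung and 7.35 to 7.74 in liver. Their part in the chain differences was not tested.

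**Figure D1:**
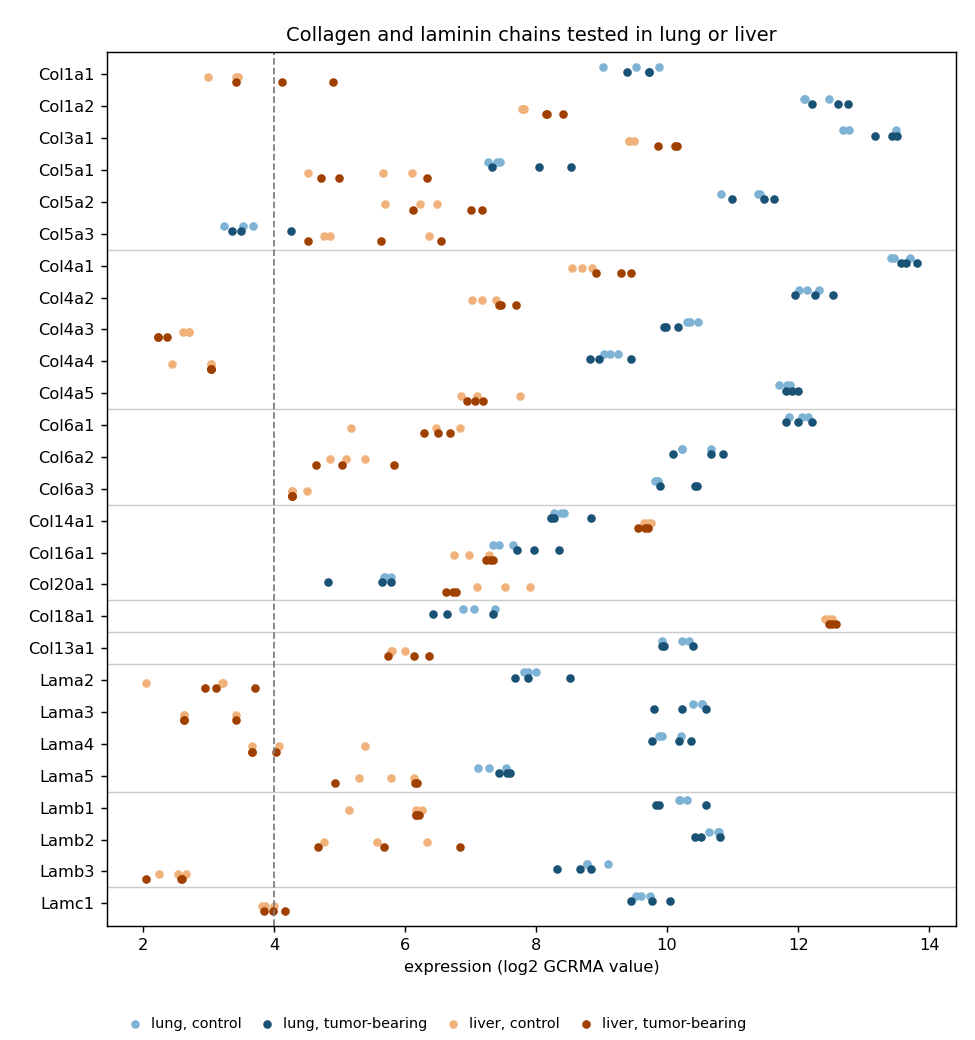
Expression of the 27 chains tested, 1 row a chain, 1 point an array, on the log2 GCRMA scale (x axis), with lung in blue and liver in orange, control pale and tumor-bearing dark. Grey lines separate the chain families and the dashed line marks the filter value of 4. Levels of different rows come from different probe sets and are not comparable. All lung points lie to the right of all liver points in 22 rows and to the left in 4 (Col5a3, Col14a1, Col18a1 and Col20a1), and in the row of Col16a1 the lowest lung point and the highest liver point coincide.

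Among fibrillar chains, 5 of the 6 tested were higher in control lung. Col1a1, a chain of type I collagen, read 9.53, 9.87 and 9.02 in control lung and 3.45, 2.99 and 3.42 in control liver. All liver control values were under 4 and were set to it for the fold, a minimum, of at least 44.4-fold higher in lung (limma adjusted p = 2.95e-06). A second Col1a1 probe set gave at least 1.75-fold. Its partner Col1a2 was well above the filter in both organs, with 12.10, 12.47 and 12.09 in lung and 7.81, 7.78 and 7.81 in liver, 21.4-fold higher in lung. Col3a1, the type III chain, was 11.6-fold higher in lung (difference 3.54 ± 0.22, SE, n = 3 arrays a group). Col5a2, a type V chain, was 33.8-fold higher.

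For the other type V chains the organs were closer. Col5a1 read 7.26, 7.45 and 7.41 in control lung and 6.11, 5.67 and 4.52 in control liver, a difference of 1.94 ± 0.40. A second Col5a1 probe set differed by 0.09 between the organs (adjusted p = 0.775), so the higher level in lung rested on the representative probe set. Col5a3, the remaining type V chain, was lower in lung, with 3.67, 3.24 and 3.52 against 4.85, 6.37 and 4.77 in liver, at least 2.51-fold lower. The liver controls of Col5a3 were widely spread. The organ difference of Col5a3 was not tested when a liver control array was left out, since it then missed the filter.

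Collagen IV chains were higher in lung in all 5 cases tested. Col4a1 read 13.42, 13.71 and 13.47 in control lung and 8.55, 8.69 and 8.85 in control liver, 28.5-fold higher in lung. Col4a2, which shares its promoter region with Col4a1, was 31.0-fold higher. Of the alveolar network, Col4a3 read 10.35, 10.47 and 10.31 in lung and 2.61, 2.70 and 2.70 in liver, at least 82.9-fold higher in lung, and Col4a4 was at least 35.2-fold higher. Both lay under the filter on every liver array. Col4a5, the last chain of that network, was read in both organs, with 11.83, 11.70 and 11.88 in lung and 6.85, 7.76 and 7.09 in liver, a 23.8-fold difference.

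The chain that lies opposite Col4a5 on the X chromosome gave no signal. Col4a6 read 2.55 to 2.60 on all 12 arrays. Of the neighbours, Col4a5 was thus above the filter in both organs and Col4a6 in neither. A probe set at its lowest value does not show that a gene is silent. Of the 27 chains tested, 6 (Col20a1, Col5a1, Col5a3, Lama4, Lama5 and Lamc1) also had a probe set at or under 4 on all 12 arrays.

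**Figure D2:**
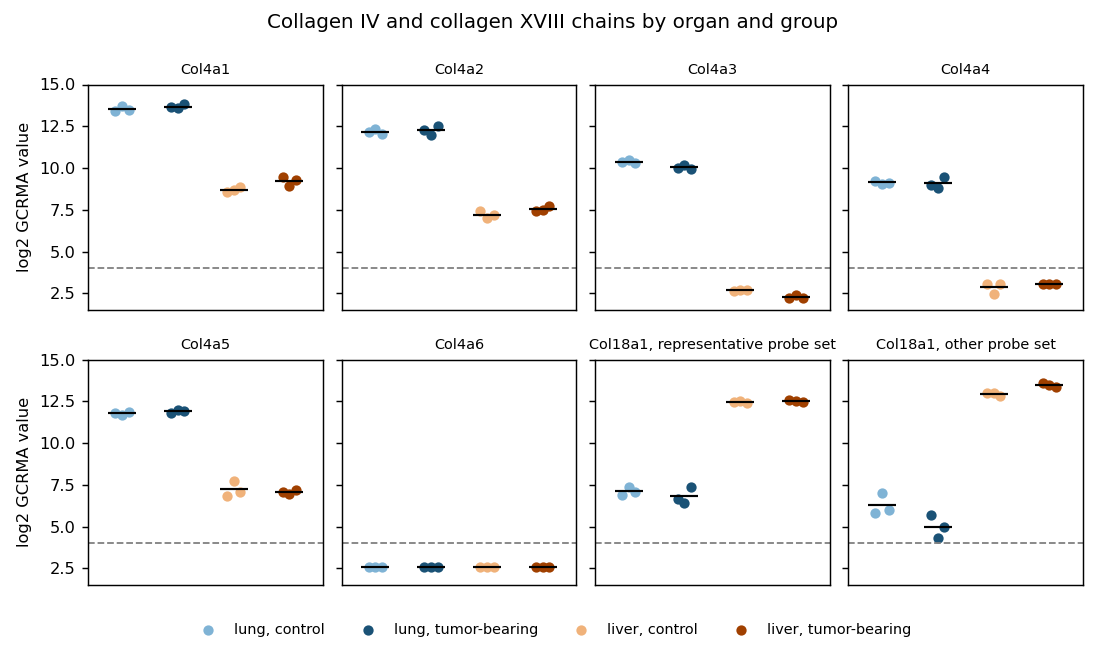
Collagen IV chains and both probe sets of Col18a1 by group, 1 point an array, with the mean as a line (y axis, log2 GCRMA value). The dashed line is the filter value of 4. Col4a3 and Col4a4 lie above it in lung alone and Col4a6 in neither organ, while Col18a1 reads 12.4 or more on the representative probe set in liver.

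Col18a1 stood out in the other direction. It codes for type XVIII collagen, a basement membrane collagen whose end fragment is endostatin. Its representative probe set read 6.89, 7.38 and 7.06 in control lung and 12.46, 12.52 and 12.41 in control liver, 40.9-fold lower in lung (difference -5.35 ± 0.14, adjusted p = 5.10e-07). A second probe set was 100.5-fold lower in lung. On the representative, the lung arrays with the most Alb, tumor replicate 1 and control replicate 3, read 6.65 and 7.06. The other lung arrays read 6.43 to 7.38. The lung values of the second probe set are given below. A relation of Alb to Col18a1 in lung was not tested. Col15a1, the other collagen of this class, read under 4 on all 12 arrays.

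Collagen VI chains were all higher in lung. Col6a1 read 12.06, 12.15 and 11.86 in control lung and 6.84, 5.17 and 6.48 in control liver, 58.2-fold higher in lung. Col6a2 was 38.4-fold higher. Col6a3 read 9.84, 9.86 and 9.81 in lung and 4.27, 4.27 and 4.50 in liver. The liver value of 4.27 was this probe set's lowest value, given on 5 of the 6 liver arrays, so 5.49 is a minimum for its organ difference.

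Fibril-associated collagens, which sit on the surface of other fibrils, went both ways. Col14a1 was lower in lung, with 8.38, 8.43 and 8.27 against 9.76, 9.65 and 9.71 in liver (difference -1.35 ± 0.08), and its second probe set gave -1.37. Col20a1 was also lower in lung, by 3.46-fold. Col16a1 was 0.47 ± 0.16 higher in lung (adjusted p = 0.0321). This was the weakest call among the chains. It fell to 0.14 (adjusted p = 0.389) when the arrays were normalized by quantiles again. It was also lost with no filter and when liver control replicate 2 or 3 or lung control replicate 1 or 2 was left out (adjusted p = 0.0689 to 0.0981 for the left-out arrays). Col13a1, a transmembrane collagen, was 19.7-fold higher in lung.

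All 8 laminin chains tested were higher in control lung. Lama3 and Lamb3, alpha and beta chains of the epithelial laminin, were under the filter on every liver array. Lama3 read 10.39, 10.54 and 10.53 in lung and 2.63, 2.63 and 3.42 in liver, at least 89.5-fold higher in lung, and Lamb3 was at least 29.5-fold higher. Lama2, the alpha chain of muscle and nerve basement membranes, was at least 14.9-fold higher. Lama4, the alpha chain of endothelial basement membranes, read 9.88, 10.21 and 9.92 in lung and 5.39, 4.08 and 3.67 in liver, a difference of 5.62 ± 0.44, with 1 of 3 liver controls under the filter.

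The chains common to most laminins followed. Lamb1 was 20.7-fold, Lamb2 36.2-fold and Lamc1 52.8-fold higher in lung. Lamc1, the gamma chain of most laminin trimers, lay near the filter in liver, with 4.01, 3.81 and 3.87 in the controls, so that fold is uncertain. Lama5, an alpha chain of mature epithelial and vascular basement membranes, differed least among the laminins. It read 7.28, 7.55 and 7.12 in lung and 5.30, 6.14 and 5.79 in liver, a 2.97-fold difference (1.57 ± 0.24, adjusted p = 0.0011). Of 12 further probe sets of these chains that were tested between the organs, 12 had the sign of the representative and 11 were called. Among all 12819 probe sets tested, 5698 were called higher and 4399 lower in lung, so most probe sets were called.

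The remaining 19 chains were tested in no comparison. These were Col2a1, Col7a1, Col8a1, Col9a1, Col9a2, Col9a3, Col10a1, Col11a1, Col11a2, Col12a1, Col15a1, Col17a1, Col19a1, Col22a1, Col25a1, Col26a1, Col4a6, Lama1 and Lamc3. They include the main chains of cartilage (Col2a1, Col9a1, Col10a1, Col11a1), of hemidesmosomes (Col17a1) and of anchoring fibrils (Col7a1). Of them, 17 read at or under 4 on all 12 arrays. The exceptions were Lama1, which read 2.33 to 4.60 in liver and 2.06 in lung, and Col10a1, which was above 4 on 1 array.

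That array was lung tumor replicate 3. Col10a1, a collagen of hypertrophic cartilage, read 5.43 there and 2.04 on the other lung arrays, and Col11a1 read 3.01 there against 2.04. The array carried other cartilage and skeletal muscle transcripts. Comp, a cartilage matrix gene, read 7.11 there and at most 2.17 on the other lung arrays, Chad read 9.99 against 4.80 to 7.36, and Acan read 4.24 against 2.04. The muscle genes Acta1 (7.20) and Myh1 (8.83) were at most 2.09 elsewhere in lung. Of the 8 skeletal muscle markers 4 were above 4 on this array, and of the 9 cartilage markers 3, while Matn3 and Sox9 stayed at the lowest value. The same array was the highest of the 6 lung arrays for 15 of the 26 chains tested (57.7%), against 27.6% of all genes tested. The part of these transcripts in the lung results was not tested.

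**Figure D3:**
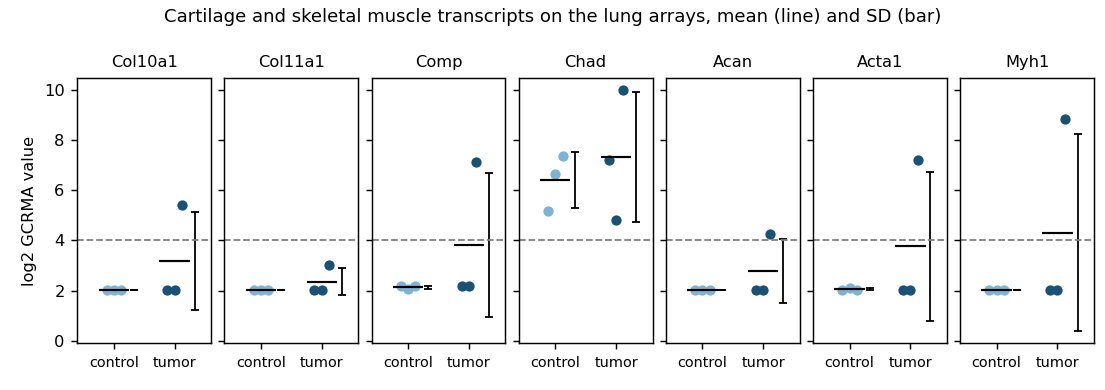
Col10a1, Col11a1 and markers of cartilage (Comp, Chad, Acan) and skeletal muscle (Acta1, Myh1) on the lung arrays, 1 point an array, with mean and SD (y axis, log2 GCRMA value). The dashed line is the filter value of 4. In each panel the highest point is the same array, tumor replicate 3.

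The comparison of tumor-bearing with control mice asked whether these chains had changed in the organs before metastasis. In lung no chain was called. The count was 0 of 26 at an adjusted p under 0.05 with limma, where 0.734% of the 7907 genes tested were called (0.620% higher and 0.114% lower), and 3 of 26 at an unadjusted p under 0.05, where the background was 13.2%. The smallest adjusted p was 0.245. A total of 16 chains read higher and 10 lower in tumor-bearing mice, with a median difference of 0.10 over the chains and -0.01 over all genes, and 47.0% of all genes read higher. This leaning depended on the arrays used. Without lung tumor replicate 3, 11 chains read higher and 15 lower, with a median of -0.02. Without both arrays highest in Alb the split was 13 and 13. The split was not counted with other arrays left out. No chain was called in either case. Over all genes, 0 of 7804 were called without both arrays highest in Alb, and 0 to 14 with any 1 lung array left out. These counts of 0 chains therefore say little. Beside this, the mean over 7 neutrophil markers was 10.04 to 10.86 in tumor-bearing and 5.45 to 6.66 in control lung, and that over 12 fibroblast markers was 8.20 to 8.72 against 8.08 to 8.59. The means over 4 mesothelial markers (9.54 to 9.97 against 8.90 to 9.44) and 7 airway epithelial markers (9.13 to 9.40 against 9.48 to 9.86) did not overlap between the groups. Their part was not tested.

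The 5 fibrillar chains tested all read higher in tumor-bearing lung, none past the threshold. Col5a1 read 8.53, 7.33 and 8.05 in tumor-bearing lung and 7.26, 7.45 and 7.41 in the controls, a difference of 0.60 ± 0.30 (adjusted p = 0.477). The groups overlapped, since tumor replicate 2 lay among the controls. Col3a1 read 13.50, 13.18 and 13.44 against 12.68, 13.49 and 12.77, and Col1a2 differed by 0.31 ± 0.18. The control array with the highest fibrillar values was replicate 2. The 95% interval of the Col3a1 difference ran from -0.19 to 0.97, so it held both no change and nearly a doubling.

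Further probe sets of these chains were read as well. The second Col5a1 probe set read 6.42, 6.02 and 6.32 against 5.81, 5.20 and 5.30, a difference of 0.81 (adjusted p = 0.200). The second Col3a1 probe set differed by 0.91 (adjusted p = 0.396), against 0.39 on the representative. The second Col1a1 probe set differed by 0.56 (adjusted p = 0.309) and the second Col5a2 probe set by 0.33 (adjusted p = 0.324), without overlap in either case, although the representative of each overlapped. Nevertheless, of the 12 further chain probe sets tested in lung, 8 had the sign of the representative and 0 were called. Among all 12296 probe sets tested there, 41 were called higher and 9 lower. Without both arrays highest in Alb the difference fell to 0.33 for Col5a1, to 0.12 for Col1a2 and to 0.22 for Col3a1, and turned to -0.15 for Col1a1 and -0.09 for Col5a2, on the representative probe sets. The signs of Col1a1 and Col5a2 also turned when lung control replicate 3 alone was left out, to -0.09 and -0.04.

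Chains whose lung groups did not overlap are given next, on the representative probe sets. Col16a1 read 7.98, 7.71 and 8.34 in tumor-bearing lung and 7.65, 7.44 and 7.35 in the controls (0.53 ± 0.18, adjusted p = 0.298). Col6a3 read 10.45, 9.90 and 10.43 against 9.84, 9.86 and 9.81 (0.42, adjusted p = 0.365). These 2 of 26 chains had higher groups that did not overlap, a share near the 8.99% of all genes. Downward, the second Col18a1 probe set separated in lung, as given below. On the representatives Col4a3 alone did so, 1 of 26 chains, against 9.57% of all genes. It read 9.99, 10.17 and 9.95 in tumor-bearing lung and 10.35, 10.47 and 10.31 in the controls, a difference of -0.34 ± 0.10 (adjusted p = 0.245), and -0.29 without lung tumor replicate 3.

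The other basement membrane chains of lung, like Col4a3, did not pass the threshold. Col4a1, Col4a2, Col4a4 and Col4a5 differed by -0.06 to 0.14 on their representative probe sets. Second probe sets had the opposite sign, with -0.09 against 0.14 for Col4a1 and -0.30 against 0.10 for Col4a5. Without lung tumor replicate 3, Col4a1 differed by 0.07, Col4a2 by -0.04 in place of 0.10, and Col4a4 by -0.24 in place of -0.06. Without both arrays highest in Alb, Col4a2 differed by 0.02 and Col4a5 by 0.19. Whether the changes of Col4a4 and Col4a5, whose products assemble with that of Col4a3, differ from that of Col4a3 was not tested.

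The 3 laminin beta chains differed by -0.13 (Lamb1), -0.15 (Lamb2) and -0.27 (Lamb3) in lung, with overlapping groups. Lama3, which pairs with Lamb3, differed by -0.27. Without lung tumor replicate 3 the differences were -0.38 for Lamb1, -0.26 for Lamb2 and -0.47 for Lama3, and Lamb1 turned to 0.01 without lung tumor replicate 1. With 1 array left out, Lama3 ran from -0.47 to -0.07 and Lamb3 from -0.39 to -0.13. Lamb3 was -0.44 without both arrays highest in Alb. Further Lamb1 probe sets differed by 0.21 and by -1.21 (adjusted p = 0.862 and adjusted p = 0.348). Lama5 read 0.22 higher (adjusted p = 0.558).

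**Figure D4:**
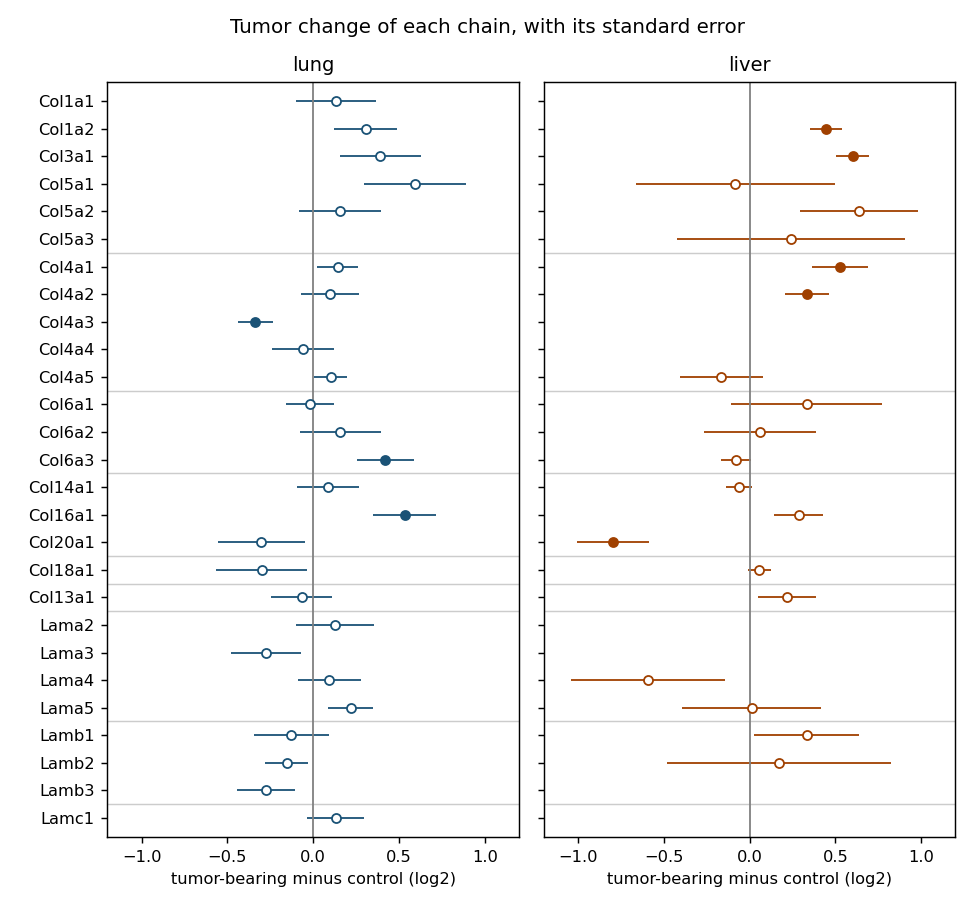
Difference between tumor-bearing and control mice for each chain tested in lung (left) and liver (right), on the log2 scale, with its standard error. Filled points mark chains whose 3 tumor-bearing and 3 control arrays did not overlap on the representative probe set. No difference passed the threshold. The filled points are Col4a3, Col6a3 and Col16a1 in lung and Col1a2, Col3a1, Col4a1, Col4a2 and Col20a1 in liver.

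In liver the type III and type I chains Col3a1 and Col1a2 had the smallest p among the chains, and no chain was called. The count was 0 of 20 with limma, where 1.87% of the 7712 genes tested were called (0.635% higher and 1.23% lower). At an unadjusted p under 0.05 it was 5 of 20, where the background was 25.9%, and at an adjusted p under 0.1 it was 3 of 20, where the background was 10.7%. In total 14 chains read higher and 6 lower in tumor-bearing mice, with a median difference of 0.20 against -0.07 over all genes, of which 39.7% read higher. As a mean over the 20 chains, control replicates 1 to 3 deviated by 0.04, 0.02 and -0.24 from the mean of the liver arrays. Tumor replicates 1 to 3 deviated by 0.15, -0.02 and 0.06. Control replicate 3 thus lay furthest from that mean. The split was not counted with a liver array left out. Centring each array on its median moved the split of all called genes from 49 higher and 95 lower to 119 higher and 73 lower. Another quantile normalization gave 46 higher and 41 lower.

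Col3a1, which forms fibrils together with type I collagen, read 10.12, 9.86 and 10.15 in tumor-bearing liver and 9.42, 9.41 and 9.49 in control liver. Every tumor-bearing array was above every control array. The difference was 0.60 ± 0.10 (1.52-fold, limma adjusted p = 0.0529), with a 95% interval of 0.36 to 0.84. Over the alternatives it ran from 0.42 to 0.72 with adjusted p from 0.0332 to 0.156, and 4 of 17 alternatives called it.

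Col1a2, the type I chain measured in liver, was next. It read 8.41, 8.17 and 8.15 against 7.81, 7.78 and 7.81 in the controls, a difference of 0.45 ± 0.09 (1.36-fold, adjusted p = 0.0663) without overlap. Its partner Col1a1 was under the filter in liver, with 4.90, 3.42 and 4.12 against 3.45, 2.99 and 3.42, so no test was made there. Col5a2 read 7.18, 6.13 and 7.00 against 6.49, 5.69 and 6.22 (0.64 ± 0.34, adjusted p = 0.299), with overlap. The second probe sets of Col3a1 and Col1a2 were under the filter in liver and give no further reading.

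Both ubiquitous collagen IV chains read higher as well. Col4a1 read 9.46, 8.92 and 9.30 in tumor-bearing liver and 8.55, 8.69 and 8.85 in the controls, a difference of 0.53 ± 0.16 (1.44-fold, adjusted p = 0.124). Its second probe set differed by 0.28, also without overlap. Col4a2 read 7.44, 7.46 and 7.69 against 7.40, 7.02 and 7.17 (0.34 ± 0.13, adjusted p = 0.178). The lowest tumor-bearing value of Col4a2 lay 0.04 above the highest control. On the representative probe sets, higher groups without overlap were thus found for 4 of 20 chains (Col3a1, Col1a2, Col4a1 and Col4a2), against 10.4% of all genes.

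**Figure D5:**
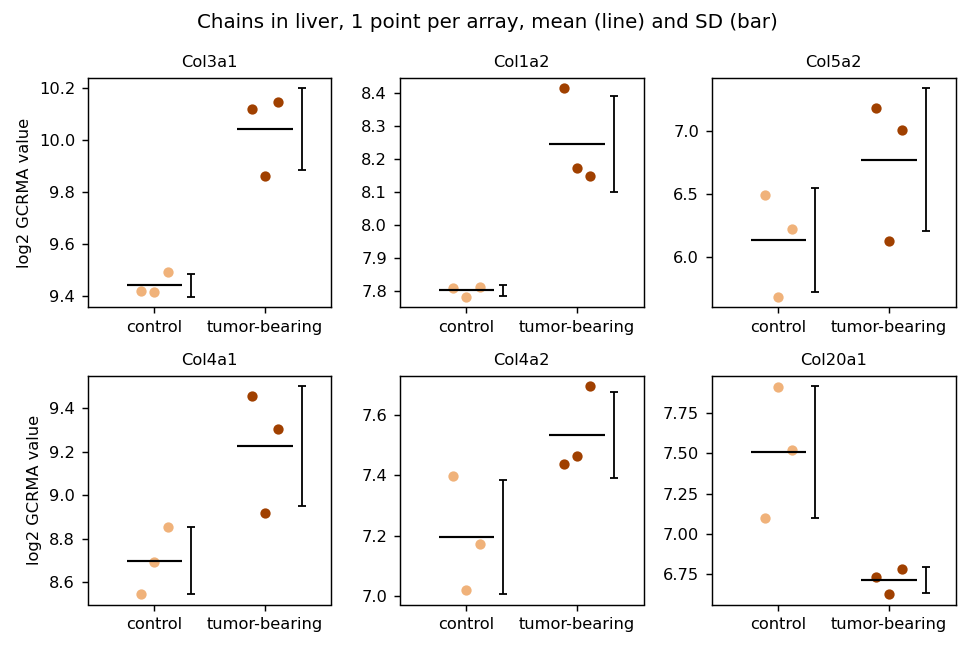
Values of 6 chains on the liver arrays, 1 point an array, control pale and tumor-bearing dark, with the mean (line) and SD (bar, n = 3). The y axis is the log2 GCRMA value and has its own range in each panel. Col3a1, Col1a2, Col4a1 and Col4a2 lie higher without overlap in tumor-bearing mice, Col20a1 lies lower, and the Col5a2 groups overlap.

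Markers of matrix-producing cells were read beside these chains. The mean over 12 fibroblast markers was 5.86, 5.58 and 5.77 in tumor-bearing liver against 5.49, 5.44 and 5.50 in the controls, without overlap, and 6 to 8 of the 12 were above 4 on each array. Among them Pdgfra differed by 0.67 (adjusted p = 0.061) and Dcn by 0.30. Fbln2 and Thy1 read 2.09 or less on all liver arrays. The mean over 6 markers of hepatic stellate cells differed with the opposite sign, with 7.49, 7.35 and 7.53 against 7.74, 7.67 and 7.46, and overlapped. The mean over 7 neutrophil markers was 4.74 to 5.17 against 3.10 to 4.33, without overlap. Their part in the chain differences was not tested.

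Col20a1 was the chain whose groups separated downward in liver. It read 6.73, 6.62 and 6.78 against 7.10, 7.91 and 7.52, a difference of -0.80 ± 0.21 (adjusted p = 0.0979), without overlap. On the representative probe sets, lower groups without overlap were found for this 1 chain of 20, against 22.7% of all genes. A second Col20a1 probe set gave -0.71 with overlapping groups. Lama4 read 3.67, 3.66 and 4.03 against 5.39, 4.08 and 3.67, near the filter in both groups. The collagen VI chains overlapped between the groups in liver, with differences from -0.08 to 0.33, and Col6a3 stood at its lowest value there.

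Col18a1, the tested chain whose liver level most exceeded its lung level, gave different readings by probe set. On the representative it read 12.57, 12.51 and 12.48 in tumor-bearing liver and 12.46, 12.52 and 12.41 in the controls, a difference of 0.06 ± 0.07, with a 95% interval of -0.11 to 0.23. On the second probe set it read 13.58, 13.48 and 13.37 against 13.00, 13.00 and 12.83, a difference of 0.53 without overlap (adjusted p = 0.0554 over all probe sets). In lung that probe set differed with the opposite sign, with 5.71, 4.31 and 4.94 against 5.84, 7.01 and 6.02, a difference of -1.30 (adjusted p = 0.333), also without overlap. The difference between the organs' changes was -1.84 on this probe set (adjusted p = 0.101) and -0.36 on the representative (adjusted p = 0.578). Neither passed the threshold. The files do not say which transcripts each probe set reads.

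The tumor changes in lung and liver were compared by the interaction on all 12 arrays. No chain was called, 0 of 27 with limma, where 1.55% of 8433 genes were called (1.03% with the higher change in lung and 0.522% with the lower), and 1 of 27 had an unadjusted p under 0.05, where the background was 17.2%. That chain was Col6a3, whose change was 0.50 ± 0.20 higher in lung (limma adjusted p = 0.232). It was called when lung tumor replicate 2 was left out (0.68, adjusted p = 0.0459). Its liver values stood at the probe set's lowest value, so the contrast is one of lung values against a flat reading. For Col4a1 the change was -0.39 ± 0.21 (adjusted p = 0.387), and for Col3a1 -0.21, with a 95% interval of -0.82 to 0.40. The second Col3a1 probe set gave 0.68, with its liver values under the filter (adjusted p = 0.484). A fibrillar or collagen IV response particular to liver was therefore not shown.

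Genes that make, process and bind these chains were read from 4 lists. Between the control organs, 10 of 17 processing genes were called higher and 6 lower in lung, 7 of 9 receptors higher and 0 lower, 12 of 13 regulators higher and 0 lower, and 5 of 7 basement membrane partners higher and 2 lower, where 45.6% of all genes tested were called higher and 35.5% lower. Of 17 genes for collagen synthesis, folding and processing, 0 of 17 were called in lung and 0 of 14 in liver. Over all genes tested, 0.734% were called in lung and 1.87% in liver, so a count of 0 in so short a list says little. In tumor-bearing mice 12 of these genes read lower in lung and 8 in liver, with medians of -0.12 and -0.07. Over all genes 4190 of 7907 read lower in lung, with a median of -0.01, and 4646 of 7712 in liver, with a median of -0.07, so the liver values were near the background. Serpinh1, which codes for the collagen chaperone HSP47, read 11.46, 11.69 and 11.77 in tumor-bearing lung and 12.33, 12.38 and 12.18 in the controls (-0.65 ± 0.12, adjusted p = 0.0884), and 1 of 18 alternatives called it (eBayes trend and robust options, adjusted p = 0.0401). P4ha2, a subunit of prolyl hydroxylase, the enzyme that stabilizes the collagen helix, read lower in both organs. In lung it differed by -0.52 (adjusted p = 0.197). In liver it read 5.40, 4.23 and 5.59 against 7.11, 6.76 and 7.00 (-1.88 ± 0.37, adjusted p = 0.0614), without overlap. Of 17 alternatives 3 called this difference, with adjusted p from 0.00844 to 0.182 over all of them. Sec23a, a coat protein gene of the vesicles that export procollagen, differed by -0.24 in liver (adjusted p = 0.114).

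Partners and receptors of the chains gave no call between tumor-bearing and control mice, where 0.734% of all genes tested were called in lung and 1.87% in liver. Of the 6 basement membrane partners tested in each organ, 0 were called, with medians of 0.06 in lung and -0.21 in liver. Agrn, the agrin gene, read 7.60, 7.87 and 7.53 against 8.05, 8.19 and 8.19 in liver (-0.48, adjusted p = 0.0813), and Smoc1 differed by -0.39 there. In lung Ntn4, a netrin that binds laminin, differed by -0.72 and Smoc2 by 0.76, with adjusted p = 0.494 and adjusted p = 0.502, and without lung tumor replicate 3 these were -0.30 and 0.29. Of the receptors 0 of 9 were called in lung and 0 of 6 in liver, with medians of 0.02 and 0.07. Itgb1, the integrin beta chain that collagen and laminin receptors share, read 11.51, 10.83 and 11.14 against 10.77, 10.66 and 10.76 in liver (0.43, adjusted p = 0.201), and Ddr2, a collagen receptor kinase, differed by 0.10. In lung Ddr1 differed by 0.30 and Itga3 by 0.19.

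Regulators of collagen genes gave the 1 call of these lists between tumor-bearing and control mice. Smad7, which codes for an inhibitor of TGF-beta signalling, read 7.99, 7.57 and 7.82 in tumor-bearing liver and 6.02, 6.03 and 6.28 in the controls. It rose 3.20-fold (1.68 ± 0.14, limma adjusted p = 0.0323), 1 of 10 regulators tested there, where 1.87% of all genes tested were called. The call was lost when any liver array was left out (adjusted p = 0.0571 to 0.123, differences from 1.58 to 1.79). The median over the regulators was 0.06 in liver and 0.04 in lung, where 0 of 13 were called and the background was 0.734%. Tgfb2, a TGF-beta ligand, read 8.80, 8.45 and 9.05 against 8.25, 8.09 and 7.62 (0.78 ± 0.22, adjusted p = 0.225), and Smad2 differed by -0.42 (adjusted p = 0.401).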

How the data were processed

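The authors deposited log2 expression values per probe set, which are GCRMA summaries (background modelled from probe sequence, then quantile normalization). The submitters' processing notes name GCRMA and limma, without versions or settings. Of 22626 probe sets, 20380 had 1 gene symbol in the platform annotation, 691 had several and 1555 were not listed, the latter 2 kinds being left out. Gene symbols of all 46 chains matched RefSeq. A gene's value was that of whichever of its probe sets averaged highest across the 12 arrays, and genes above 4 on at least 3 of the arrays compared were tested with limma 3.58.1 in R 4.3.3 (lmFit and eBayes, Benjamini-Hochberg adjustment over all genes tested, threshold 0.05). The fits were tumor-bearing against control in each organ, control lung against control liver, and the interaction on all 12 arrays, which treats organs of the same mouse as independent; each adjusted p is from limma.

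Chains named in each tumor comparison were the 6 with the smallest p in each direction, the chains of the main trimers and, between organs, the 10 largest differences in each direction. Of the other lists, genes past the threshold were named, or else those with the 2 smallest p. Members, lists and this rule were chosen with earlier results of these data known. Features singled out beyond the rule were the further probe sets, Col13a1, Col16a1 and Lama1 between the organs, and the markers named, chosen after their values were seen. The labels give no batch or scan date. Promoter windows were taken from RefSeq (GRCm38.p6) and searched on both strands. The fits were tested on simulated data. Other filters, probe set rules, normalizations, limma options, thresholds, a replicate block and fits with arrays left out were tried as alternatives.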

Additional observations from a re-analysis of the deposited data

Results flagged for a closer look

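The tumor changes of Smad7 in the organs differed by the test of the interaction on all 12 arrays, by -2.09 (lung minus liver, limma adjusted p = 0.0139). Smad7 read 3.20-fold higher in tumor-bearing liver. In lung it read 9.30, 9.76 and 10.32 in tumor-bearing mice and 10.18, 10.24 and 10.18 in the controls. That lung difference was -0.41 ± 0.25 (limma adjusted p = 0.561), with overlapping groups. The interaction was past the threshold under 22 of 23 alternatives, the exception being the replicate block (adjusted p = 0.0716).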

How the results depend on the processing

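The count of chains called in lung was 0 under every alternative run. In liver it was 1 with a filter of above 6 on at least 3 arrays, with arrays centred on the median, with eBayes trend and robust options and with array weights, Col3a1 in each case. It was also 1 with all 12 arrays in 1 fit, where the chain was Col4a3, which is under the filter in liver alone, and 3 at an adjusted p under 0.1 (Col1a2, Col3a1 and Col20a1); the cause was not tested. With 1 array left out the count was 0 to 0 in lung, 0 to 0 in liver, 20 to 26 between organs and 0 to 1 for the interaction, where Col6a3 was called without lung tumor replicate 2. Calls over all genes fell to 0 to 14 in lung and 0 to 1 in liver, so a count of 0 chains then says little. They were 5845 to 6072 between organs and 51 to 137 for the interaction. Leaving out a lung control array put Col1a1, Col4a3, Col4a4, Lama2, Lama3 and Lamb3 under the filter. The replicate block gave 0 calls in lung, 0 in liver, 27 between organs and 0 for the interaction. Over all genes it called 1 higher and 0 lower of 7907 in lung, and 0 of 7712 in liver. Between organs it called 3699 higher and 2879 lower of 8270, and for the interaction 15 higher and 6 lower of 8433. A count of 0 chains with the block therefore says little. Smad7 in liver had a limma adjusted p of 0.121 with the block. Deviations of arrays with the same replicate number correlated at -0.223 to 0.203 between tumor-bearing and control arrays of an organ. Between lung and liver arrays, within control or tumor-bearing mice, they correlated at 0.023 to 0.101. Arrays with different numbers were not compared, so these values cannot settle whether arrays are paired. No pairing was assumed because no label says that a replicate number marks a mouse. Centring moved the median of all genes in liver from -0.07 to 0.05, and quantile normalization moved it between organs from 0.18 to 0.05. Between organs, the sign of 0 chains turned under each of the alternatives that read 1 value a gene, among the chains each one tested. Signal near the lowest value limits the chains under the filter.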
